A study of Mus musculus with 4 samples.

Results

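The genes described here encode 10 transcription factors that are tied to quiescence and to the naive or stem-like state of T cells: Tcf7, Lef1, Satb1, Bach2, Foxo1, Foxp1, Id2, Id3, Klf3 and Bcl6. They were taken by gene symbol from the 32285 genes of the count files, and all 10 were found and passed the filter on low counts in each comparison against resting cells. Mouse splenic T cells from C57BL6/J animals, sorted as CD3+CD4+, were cultured for 6 hours with anti-CD3/anti-CD28 Dynabeads, which engage the T-cell receptor and its costimulatory receptor CD28. Their RNA was read by droplet sequencing of single cells, which counts unique molecular identifiers (UMIs) at the 3′ end of transcripts. Of the 4 libraries, 2 are labelled Irf5-/- (a knockout of interferon regulatory factor 5, called labelled knockout below) and 2 wild type, with 1 female and 1 male library under each label. All 4 libraries were stimulated, so a loss can be read only as a difference between cells of the same culture, not as a change from unstimulated cells. The labels give no age, no number of mice per library and no batch, and p-values therefore measure the spread between these libraries only.

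The files held 28841161 to 55850754 UMIs per library. Barcodes were kept as cells with at least 2000 UMIs, at least 500 genes and at most 10% mitochondrial UMIs, which left 1814 to 6543 cells per library (19100 in all) with median depths of 5104.5 to 9661 UMIs. After removal of 95 cells with genes of other lineages, 19005 T cells remained, with a mean Cd3e level of 181 ± 17.4 counts per 1000000 UMIs (CPM; SD, n = 4). Between 2 and 14 barcodes were shared by each pair of libraries. Irf5 itself went against the labels: it stood at 8.47 and 8.93 CPM in the libraries labelled knockout and at 0.947 and 0.972 CPM in those labelled wild type. The part of Irf5 that the allele deletes was not given in the sources used here, and a 3′ count outside it would not show the deletion. An exchange of the labels and a transcript kept by the allele cannot be told apart here, and an exchange would turn the sign of every difference between labels given below. Droplets with under 200 UMIs, which hold free RNA, took 8.62% to 36.2% of the UMIs of a library, with the highest share in the female library labelled wild type.

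T cells are held in a resting state by an active program of transcription factors. The HMG-box factors TCF-1 (Tcf7) and LEF-1 (Lef1) keep the naive identity and the capacity for self-renewal. FOXO1 and FOXP1 hold quiescence and homing, KLF3 belongs to the Krüppel-like repressors, BACH2 represses effector genes at AP-1 sites, and SATB1 organizes chromatin loops. BCL6 is the repressor that directs follicular helper cells, and the Id proteins bind E proteins and keep them from DNA. Receptor signals are known to switch off part of this program within hours.

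Promoter sequence is shown for Lef1 and Klf3, the members that fell furthest beside Tcf7 in activated cells, and for Satb1 and Bcl6, members that rose there. Each stretch is taken from the RefSeq promoter table (GRCm38.p6), runs 5′ to 3′ on the strand of the gene and ends before the first base of the GENCODE gene. Capitals mark GC boxes (GGGCGG on either strand), the binding letters of Sp and Krüppel-like factors.
Lef1, chr3:131110073-131110322, plus strand: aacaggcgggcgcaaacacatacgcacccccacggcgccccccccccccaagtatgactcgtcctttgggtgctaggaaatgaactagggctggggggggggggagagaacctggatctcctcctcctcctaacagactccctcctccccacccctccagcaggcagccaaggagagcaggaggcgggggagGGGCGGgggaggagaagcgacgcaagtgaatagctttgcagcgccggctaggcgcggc
Klf3, chr5:64803271-64803387, plus strand: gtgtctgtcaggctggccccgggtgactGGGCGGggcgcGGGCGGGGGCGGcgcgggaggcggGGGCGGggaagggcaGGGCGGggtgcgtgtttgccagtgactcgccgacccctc
Satb1, chr17:51833291-51833540, minus strand: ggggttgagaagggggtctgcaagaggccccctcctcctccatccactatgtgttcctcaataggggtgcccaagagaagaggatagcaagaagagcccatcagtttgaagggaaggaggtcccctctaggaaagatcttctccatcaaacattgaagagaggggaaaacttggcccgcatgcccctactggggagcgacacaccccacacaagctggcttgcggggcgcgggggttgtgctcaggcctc
Bcl6, chr16:23988853-23989102, minus strand: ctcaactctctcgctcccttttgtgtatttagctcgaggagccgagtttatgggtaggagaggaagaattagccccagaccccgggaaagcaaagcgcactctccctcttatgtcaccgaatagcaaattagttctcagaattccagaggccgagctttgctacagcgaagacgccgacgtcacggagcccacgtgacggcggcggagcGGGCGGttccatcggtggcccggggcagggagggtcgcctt

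The RefSeq start of Bach2 lies 178631 bases from its GENCODE start, and its window is therefore that of a shorter transcript. The RefSeq starts of Foxp1, Id2 and Id3 lie 1728, 1048 and 325 bases from their GENCODE starts. Their windows lie within the GENCODE gene, and each is among those with a GC box below. Over the 250 bases before the RefSeq start, 8 of the 10 members held at least 1 GC box, against 32.7% of all 32851 promoters in the table. Klf3 held 6 of them, and Satb1 and Bach2 held none. The window of Klf3 was 78.4% G and C, where the median promoter was 52.4%. Matches to an EGR motif (GTGGGCG, in 7.02% of all promoters), a FOXO motif (GTAAACA, 3.17%), an AP-1 motif (TGANTCA, 6.75%) or a cyclic AMP response element (TGACGTCA, 1.55%) were found in 0 of the 10 windows. A TCF motif (CTTTGA, 13.8%) stood in 1 window, that of Bach2, and an E-box (CAGNTG, 44.8%) in 3. An EGR match and a GC box can share letters. Both strands were searched, and for members with several RefSeq starts the one nearest the GENCODE start was used. These are matches of letters in 1 window per gene and say nothing of binding.

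Cells were split by genes that are not among the 10 factors. The activation sum counted the UMIs of Nr4a1, Egr1, Egr2, Egr3, Irf4, Myc, Tnfrsf4, Tnfrsf9 and Nfkbid in each cell after thinning to 2000 UMIs. Cells with at least 1 Foxp3 UMI, the lineage factor of regulatory T cells, formed the Foxp3 class (859 cells, 42 to 360 per library). Cells without Foxp3 and with at least 1 UMI of S100a6 or S100a4, calcium-binding proteins of memory and effector cells, formed the S100a6 class (214 cells, 32 to 74 per library). The other cells were resting with a sum of 0 or 1 (5710 cells), intermediate with 2 to 4 (4778 cells) and activated with 5 or more (7444 cells). These are ranges of counts, not cell types: 2077 cells lay at a sum of 1, 1698 at 2, 1426 at 4 and 1163 at 5, 298 Foxp3 cells had a single Foxp3 UMI, and 129 of the 214 S100a6 cells had a single UMI of their gate genes. Free RNA held Foxp3 at 19.9 to 63.8 CPM and S100a6 at 9.78 to 31.5 CPM, where all T cells held them at 16.9 ± 8.18 and 4.68 ± 1.77 CPM (SD, n = 4), and how many cells entered these gates through free RNA was not tested. A first S100a6 gate of 3 or more thinned UMIs gave 22 cells (2 to 9 per library), and the wider gate was set after those cells were counted and the memory genes were seen at several limits, but before the factors were looked at in it.

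Other genes moved with the classes. In activated against resting cells, 6 of 6 naive markers (such as S1pr1 and Il7r) were lower and 6 of 6 activation markers (such as Cd69 and Il2ra) were higher in edgeR's quasi-likelihood test. In Foxp3 cells 6 of 6 regulatory markers (such as Ikzf2 and Ctla4) were higher, and in S100a6 cells 7 of 7 memory markers (such as Cxcr3 and Itgb1) were, although these had been seen when the limit of that gate was set and are no independent check of it. The regulatory markers were also higher in S100a6 cells, 5 of 6 of them (median 1.38, against -0.01 for all genes), among them Ikzf2 (2.75) and Ctla4 (1.62), and their part in the results for that class was not tested. In Foxp3 cells 4 of the 7 memory markers were higher and 1 lower, with Ahnak at 2.36, Lgals1 at 1.53, Itgb1 at 0.81 and Crip1 at 0.43, and their part was not tested either. Median depth differed between classes, with 3702 to 6856 UMIs in resting cells and 5360 to 10110 in activated cells, and its part in the differences below was not tested, beyond the thinned and deeper-cell alternatives given at the end.

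**Figure D1:**
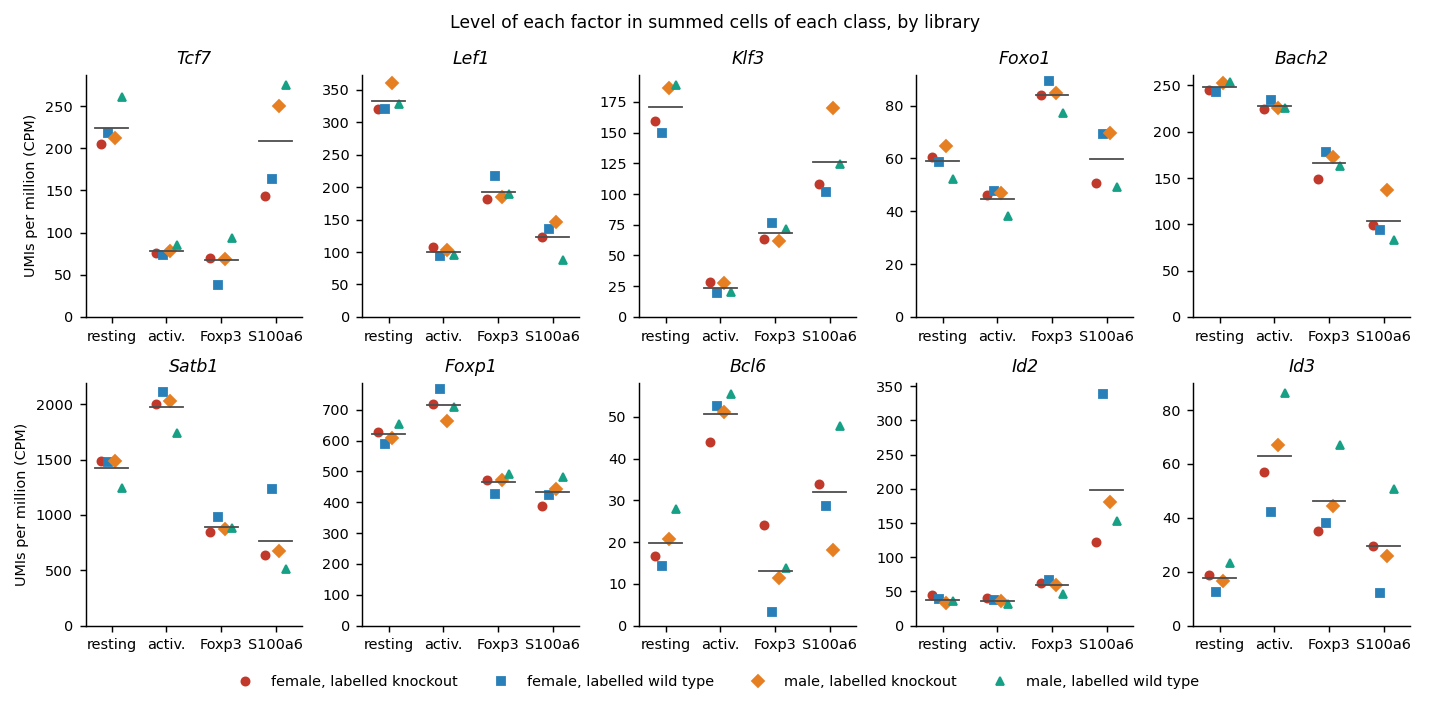
Level of each of the 10 factors in CPM (linear axis from 0) in the summed cells of the resting, activated, Foxp3 and S100a6 classes; each marker is 1 of the 4 libraries and the line is their mean. Tcf7, Lef1 and Klf3 sit far below the resting level in every library's activated cells, Satb1 and Id3 sit above it, and Id2 is highest in S100a6 cells.

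The activated cells had lost much of 3 factors, kept others and gained several. Between activated and resting cells, 4 of the 10 members were lower and 4 were higher at an adjusted p under 0.05 in a fit of 9677 genes, of which 37.3% were lower and 42.9% higher, so the count of members called is near that of genes in general. Those shares move with the scale: 45.7% lower and 34.4% higher with no scaling factors, 29.9% and 50.7% with UMIs per cell. The fits against resting cells for the activated and Foxp3 classes use the narrow S100a6 gate, which left 5798 resting and 7498 activated cells. The median log2 change of the members was 0.05, and that of all genes tested was 0.06. Library values below are in the order female labelled knockout, female labelled wild type, male labelled knockout and male labelled wild type. Log2 changes are fitted values ± SE over the 4 libraries. Each SE was derived from the F statistic of edgeR's test, which shares information between genes, and is not an SD between libraries.

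Tcf7 (chr11:52252371-52283014, minus strand) stood at 204, 218, 212 and 260 CPM in resting cells and at 76.3, 73.9, 77.9 and 84.8 CPM in activated cells. The groups did not overlap, and Tcf7 fell by 1.34 ± 0.07 on the log2 scale (adjusted p = 4.88e-18). Lef1 (chr3:131110471-131224356, plus strand), its partner in binding the same sites, stood at 320, 320, 360 and 329 CPM in resting cells. In activated cells Lef1 was at 108, 93.8, 104 and 95.4 CPM, a fall of 1.53 ± 0.06 (adjusted p = 1.72e-20). Both HMG-box genes were thus lower in each library. Per cell, after thinning to 2000 UMIs, 20.2 ± 2.88% of resting cells held a UMI of both genes (SD, n = 4) and 2.99 ± 0.413% of activated cells did. Neither gene was seen in 35.3 ± 1.86% of resting and 72.4 ± 1.5% of activated cells. In 38 cells set aside for myeloid or erythroid genes and thinned alike, a Tcf7 UMI was seen in 13.2% of cells (95% exact interval 4.41% to 28.1%, counting error only) and a Lef1 UMI in 5.26% (0.644% to 17.7%). In activated cells the shares were 12.7 ± 0.707% and 18.0 ± 1.16%. The interval for Tcf7 is wide and covers its activated share, so that share cannot be told from that of the 38 cells. Of those 38 cells, 44.7% held a Satb1 UMI and 31.6% a Foxp1 UMI, and whether they carry T-cell RNA was not tested. Free RNA held Tcf7 at 83.7 to 118 CPM and Lef1 at 97.4 to 120 CPM, near the activated levels.

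Klf3 (chr5:64803388-64832901, plus strand), whose GC-rich promoter is printed above, had the largest fall of the 10. It stood at 160, 149, 186 and 189 CPM in resting cells and at 28.7, 19.2, 27.7 and 19.9 CPM in activated cells, and fell by 2.65 ± 0.09 (adjusted p = 5.17e-23). The free RNA of the libraries held Klf3 at 37.1 to 44.3 CPM, above every activated value. A Klf3 UMI was seen in 4.89 ± 0.664% of activated cells after thinning (13.2% of them without thinning) and in 30.5 ± 4.01% of resting cells (53.3% without). In the 38 myeloid or erythroid cells the share was 18.4% (95% exact interval 7.74% to 34.3%, counting error only). The activated share lies below this interval. The resting share lies within it and cannot be told from that of these cells.

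The forkhead genes differed. Foxo1 (chr3:52268336-52353221, plus strand), which holds Klf2 and Il7r expression in naive cells, stood at 60.4, 58.8, 64.5 and 52.1 CPM in resting and at 46.0, 47.8, 46.9 and 38.3 CPM in activated cells. In free RNA it was at 37.8 to 52.6 CPM, a range that held all activated values and the lowest resting value. Its fall of 0.23 ± 0.06 (adjusted p = 0.00141) was small, and it was lost when UMIs per cell were fitted (a log2 change of -0.03, adjusted p = 0.647) and when Tnfrsf4, Tnfrsf9 and Irf4 were taken out of the activation sum (-0.03, adjusted p = 0.606). Foxp1 (chr6:98925338-99522721, minus strand) was at 629, 588, 609 and 655 CPM in resting and at 720, 767, 663 and 709 CPM in activated cells. Foxp1 rose by 0.39 ± 0.06 (adjusted p = 2.93e-07), but with those 3 genes taken out the difference was 0.02 (adjusted p = 0.511).

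Satb1 (chr17:51736187-51833290, minus strand) stood at 1491, 1482, 1485 and 1242 CPM in resting cells and at 2006, 2110, 2030 and 1743 CPM in activated cells. Its rise of 0.66 ± 0.07 (adjusted p = 1.42e-10) held in 4 of 4 libraries, and in both classes the lowest value was in the male library with the wild-type label. Bach2 (chr4:32238804-32586108, plus strand) stood at 245, 243, 252 and 253 CPM in resting and at 225, 234, 226 and 226 CPM in activated cells. The raw levels were slightly lower in each library, yet the fitted change was 0.07 ± 0.06 (adjusted p = 0.273), and its sign turned with the scale: it was -0.12 (adjusted p = 0.0316) with no scaling factors and 0.26 (adjusted p = 0.00044) per cell. No direction can therefore be given for Bach2. The scale moved all genes: the median log2 change over all genes tested was 0.06 with TMM factors, -0.13 without and 0.25 per cell.

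Bcl6 (chr16:23965052-23988852, minus strand) was at 16.6, 14.2, 20.6 and 28.0 CPM in resting cells and at 43.9, 52.6, 51.1 and 55.4 CPM in activated cells. It rose by 1.46 ± 0.10 (adjusted p = 1.11e-14), and a Bcl6 UMI was seen in 3.79 ± 1.11% of resting and 9.58 ± 1.46% of activated cells after thinning (10.5% and 27.3% without). In the 38 myeloid or erythroid cells the share was 2.63% (95% exact interval 0.0666% to 13.8%), which covers both thinned shares, so these shares cannot be told from background. Id3 (chr4:136143497-136145755, plus strand) had the largest rise, from 18.8, 12.7, 16.6 and 23.2 CPM to 56.8, 42.1, 67.2 and 86.2 CPM, by 2.01 ± 0.09 (adjusted p = 1.01e-19). Free RNA held Id3 at 36.0, 29.1, 57.3 and 57.7 CPM, above the resting and below the activated value of each library. Id2 (chr12:25093799-25097140, minus strand), the other Id gene, stood at 44.4, 38.8, 32.7 and 36.6 CPM in resting and at 41.1, 37.3, 36.4 and 32.1 CPM in activated cells. The groups overlapped and the change of 0.03 ± 0.10 did not pass the test (adjusted p = 0.792). Other settings called Id2 in opposite directions, -0.25 (adjusted p = 0.00691) without Tnfrsf4, Tnfrsf9 and Irf4 in the activation sum and 0.30 (adjusted p = 0.0239) with the second activation list. Id3 thus rose in activated cells, and no direction can be given for Id2.

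Along the activation sum the losses came at different points. Mean Klf3 was 216 ± 32.8 CPM (SD, n = 4) at a sum of 0, 111 ± 6.77 at 1, 42.1 ± 9.10 at 2 to 4, 25.4 ± 4.43 at 5 to 9 and 21.4 ± 7.15 at 10 or more. Lef1 went from 403 ± 25.4 CPM at 0 to 239 ± 22.1 at 1, 123 ± 8.13 at 2 to 4 and 100 ± 9.03 at 5 to 9, and was 101 ± 3.78 at 10 or more. Most of the Lef1 and Klf3 difference thus lay below the activated range, among cells with few UMIs of the 9 genes. Tcf7 went on falling to the last step, with 246 ± 42.1 CPM at 0, 129 ± 7.53 at 2 to 4, 89.8 ± 4.05 at 5 to 9 and 58.5 ± 7.53 at 10 or more. Satb1 was level at 1454 ± 126 CPM at 0 and 1409 ± 161 at 2 to 4, and was higher only in the last steps, with 1695 ± 132 at 5 to 9 and 2444 ± 180 at 10 or more. Id3 was already at 26.0 ± 8.98 CPM at a sum of 1 against 11.5 ± 1.09 at 0, and reached 72.0 ± 33.0. Foxp1 had its highest mean, 761 ± 49.9 CPM, at 5 to 9 and stood at 637 ± 34.7 at 10 or more. Cells of each step came from the same 4 libraries, and no test was run along the steps.

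**Figure D2:**
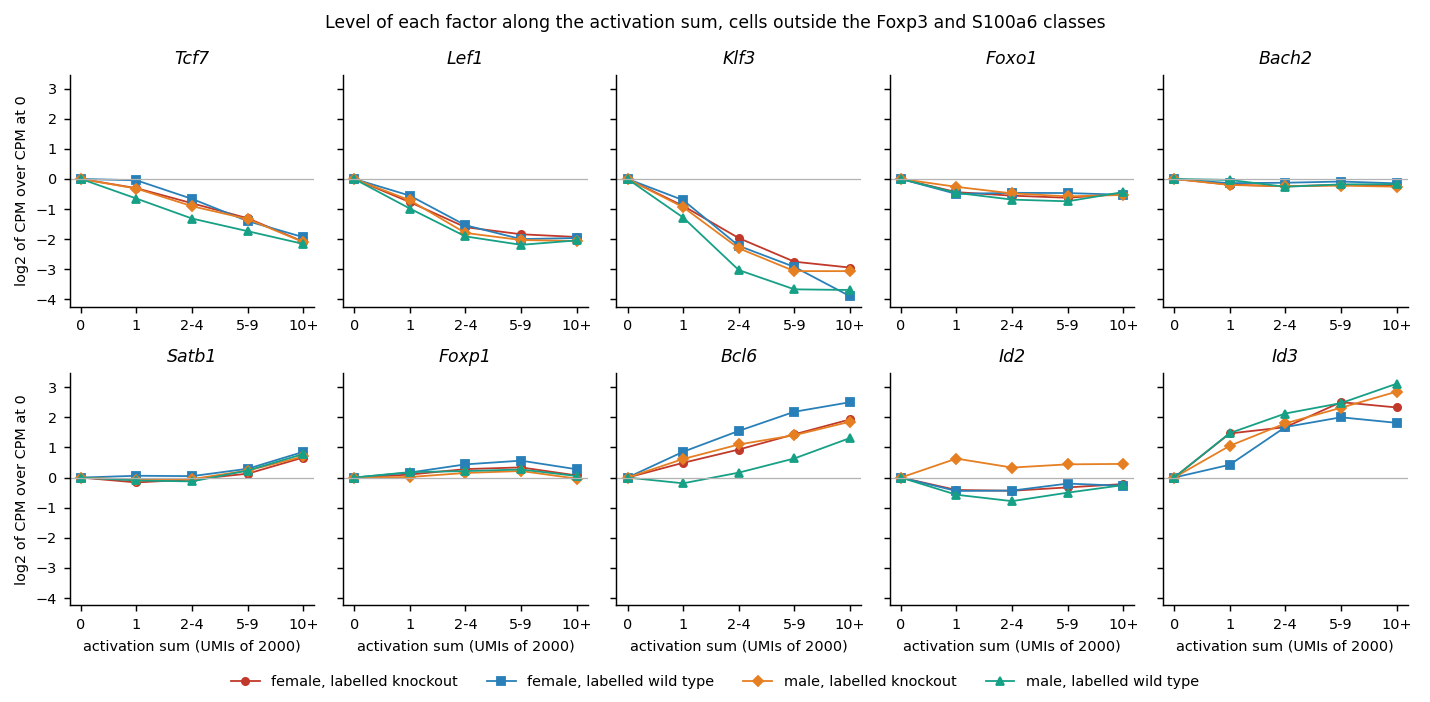
Level of each factor along the activation sum (UMIs of the 9 activation genes per 2000 UMIs), as log2 of its CPM over its CPM at a sum of 0; each line is 1 of the 4 libraries, and Foxp3 and S100a6 cells are left out. Klf3, Lef1 and Tcf7 fall in 4 of 4 libraries, Id3 rises in 4 of 4, and Bach2 stays near 0.

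In Foxp3 cells the program was lower than in resting cells for most members. Of the 10 members, 7 were lower, where 17.3% of the 9677 genes were, and 3 were higher, where 20.8% were, so all 10 passed the test, where 38.1% of genes did. The shares of all genes were 12.2% lower and 31% higher with no scaling factors and 6.98% and 47.5% per cell. Tcf7 was at 69.9, 38.2, 68.8 and 93.9 CPM, a fall of 1.76 ± 0.10 (adjusted p = 7.82e-16). Each of these values lay below the Tcf7 level in the free RNA of its library (87.7, 104, 83.7 and 118 CPM). Lef1 was at 182, 217, 185 and 189 CPM, between the resting and activated levels, and fell by 0.96 ± 0.08 (adjusted p = 7.48e-12). Klf3 was at 63.7, 76.5, 62.2 and 71.8 CPM and fell by 1.57 ± 0.12 (adjusted p = 8.23e-13). These 3 genes were below the resting range in each library, as they were in activated cells, and the share of all genes that were so was not counted.

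Satb1, Foxp1 and Bach2 were lower in Foxp3 cells too. Satb1 was at 851, 978, 871 and 879 CPM and fell by 0.80 ± 0.07 (adjusted p = 1.18e-10). Free RNA held Satb1 at 1145, 1032, 1004 and 854 CPM, above the Foxp3 value in all but the male library labelled wild type. Foxp1 was at 471, 427, 471 and 491 CPM and fell by 0.52 ± 0.07 (adjusted p = 1.24e-07). Bach2, which is known to restrain effector differentiation of regulatory cells, was at 149, 178, 173 and 163 CPM and fell by 0.72 ± 0.07 (adjusted p = 1.34e-09). Bcl6 was at 24.1, 3.19, 11.5 and 13.8 CPM from 88 UMIs in all, below the 17.8 to 28.7 CPM of the free RNA in 3 of 4 libraries. Its fall of 0.59 ± 0.22 (adjusted p = 0.0312) did not pass the test without the male library labelled knockout (adjusted p = 0.318) or without the male library labelled wild type (adjusted p = 0.271), nor with UMIs per cell (-0.26, adjusted p = 0.33), DESeq2, no scaling factors, no library block or the wide S100a6 gate. The loss of Bcl6 against resting cells is therefore uncertain.

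Foxo1 and Id3 were higher, and a rise of Id2 was uncertain. Foxo1, needed for regulatory T-cell homing and function, was at 84.2, 89.2, 84.8 and 77.3 CPM, above each resting value, and rose by 0.35 ± 0.09 (adjusted p = 0.00163). Id3 was at 35.3, 38.2, 44.5 and 67.0 CPM and rose by 1.19 ± 0.14 (adjusted p = 3.58e-08). Id2 was at 62.5, 66.9, 60.1 and 46.9 CPM and rose by 0.37 ± 0.15 (adjusted p = 0.0476). Free RNA held Id3 at 29.1 to 57.7 CPM and Id2 at 37.5 to 76.8 CPM. All Id2 values and all but the highest Id3 value lay within these ranges. The Id2 call was lost in 8 of 16 alternatives: without the male library labelled knockout (0.22, adjusted p = 0.425), with DESeq2, with RLE factors, with thinned counts, in cells of at least 4000 UMIs, without cells of very high UMI count, without the library block and with the Foxp3 gate on thinned counts. Its values over the alternatives were -0.12 to 0.70. With counts thinned to 2000 UMIs per cell, the Foxo1 rise was 0.18 and did not pass the test (adjusted p = 0.353), and the Id2 difference was -0.12 (adjusted p = 0.697).

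**Figure D3:**
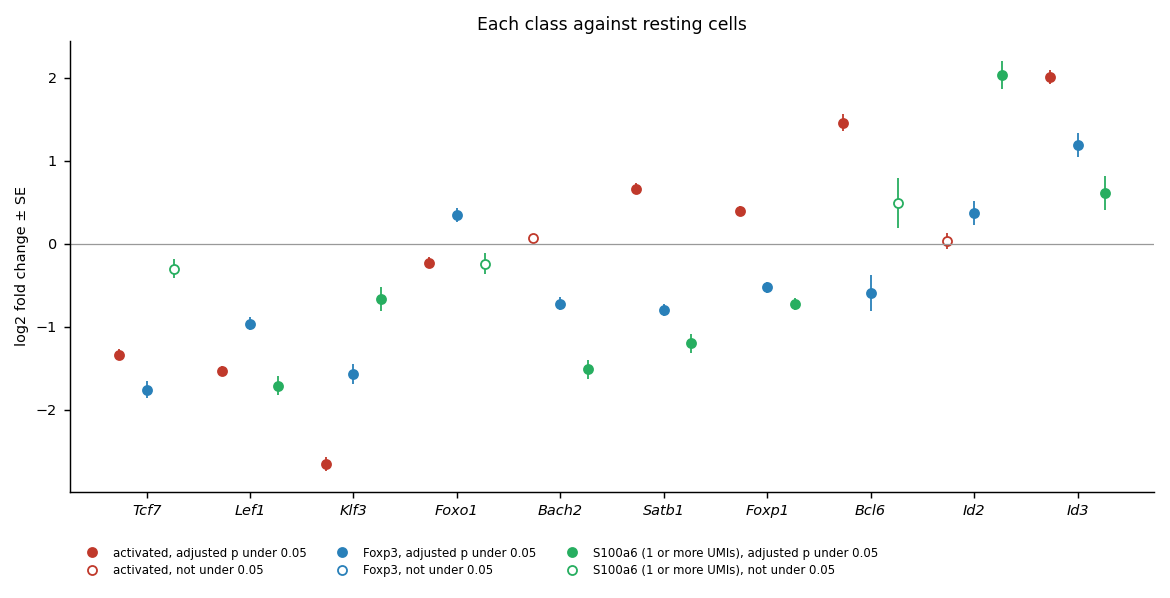
Fitted log2 change ± SE of each factor in activated, Foxp3 and S100a6 cells (1 or more UMIs of S100a6 or S100a4) against resting cells over 4 libraries; filled points have an adjusted p under 0.05. Lef1 is lower in all 3 classes, Satb1 and Foxp1 are higher in activated cells and lower in the other classes, and Id2 is highest in S100a6 cells.

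Foxp3 cells also spread along the activation sum, with 142 in the resting range, 176 between and 541 in the activated range. Within Foxp3 cells, activated against resting range, 6 of the 9 members tested were called, where 41.4% of 3913 genes were. Klf3 fell by 2.54 ± 0.24 (adjusted p = 4.01e-11), Lef1 by 1.79 ± 0.17 (adjusted p = 6.33e-11) and Tcf7 by 1.59 ± 0.22 (adjusted p = 2.51e-07). Klf3 went from 194 ± 63.9 CPM (SD, n = 4) to 39.4 ± 11.1 CPM, so the loss of the 3 genes was seen in Foxp3 cells as in other cells. The test of whether the change differed between Foxp3 and other cells called 4 members, where 4.19% of 9545 genes were called (Satb1, Foxp1, Id3 and Bcl6, whose values depend on the gate and are given at the end). For the 3 genes it gave -0.03 for Tcf7 (adjusted p = 0.963), -0.03 for Lef1 (adjusted p = 0.947) and 0.31 for Klf3 (adjusted p = 0.607).

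Foxp3 cells were also compared with other cells of the same range. In the activated range (541 Foxp3 cells) 6 members were lower, where 19.2% of 9115 genes were, and 3 were higher, where 21.3% were. The lower ones were led by Bcl6 (-2.14 ± 0.20, adjusted p = 1.79e-08), Satb1 (-1.29 ± 0.06, adjusted p = 4.91e-13) and Foxp1 (-0.85 ± 0.06, adjusted p = 8.19e-10). In these Foxp3 cells Bcl6 rested on 50 UMIs. It was at 10.1 ± 7.09 CPM (SD, n = 4), in each library below the 17.8 to 28.7 CPM of free RNA. Bach2, Id3 and Tcf7 were also lower, by 0.68 to 0.75 on the log2 scale. Foxo1 (0.78), Id2 (0.76) and Klf3 (0.40) were higher, and Lef1 did not differ beyond its error (0.08 ± 0.09, adjusted p = 0.488). In the resting range (142 Foxp3 cells) 3 members were called, where 7.81% of 8599 genes were: Tcf7 (-0.74) and Satb1 (-0.69) were lower and Id3 (1.44) was higher.

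These within-range values depend on how the range is set. Tnfrsf4, Tnfrsf9 and Irf4, which regulatory T cells are known to express, made up 63.7% to 79.7% of the activation sum in activated-range Foxp3 cells and 29.2% to 36.6% in other activated cells. With the sum taken over the other 6 genes, a choice made after the values above were seen, 129 Foxp3 cells (7 to 56 per library) were in the activated range and 579 in the resting range. The limits of the sum were kept, so the ranges of the other cells moved too, from 5710 to 10015 resting and from 7444 to 4049 activated cells, and the choice of genes and the stricter range cannot be told apart. Of the members, 8 were then called in the resting range (30.8% of 9800 genes) and 3 in the activated range (5.68% of 7645 genes). Tcf7, Satb1 and Bcl6 were lower in the activated range with either sum, by 1.05 (adjusted p = 0.0143), 0.69 (adjusted p = 9.28e-08) and 2.02 (adjusted p = 4.18e-05) with 6 genes. Tcf7 and Satb1 were lower in the resting range too, by 1.19 and 1.15. The lower Satb1 and Tcf7 of Foxp3 cells thus did not turn on the gate, while several others, among them Id2, Id3 and Klf3, changed sign with it.

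**Figure D4:**
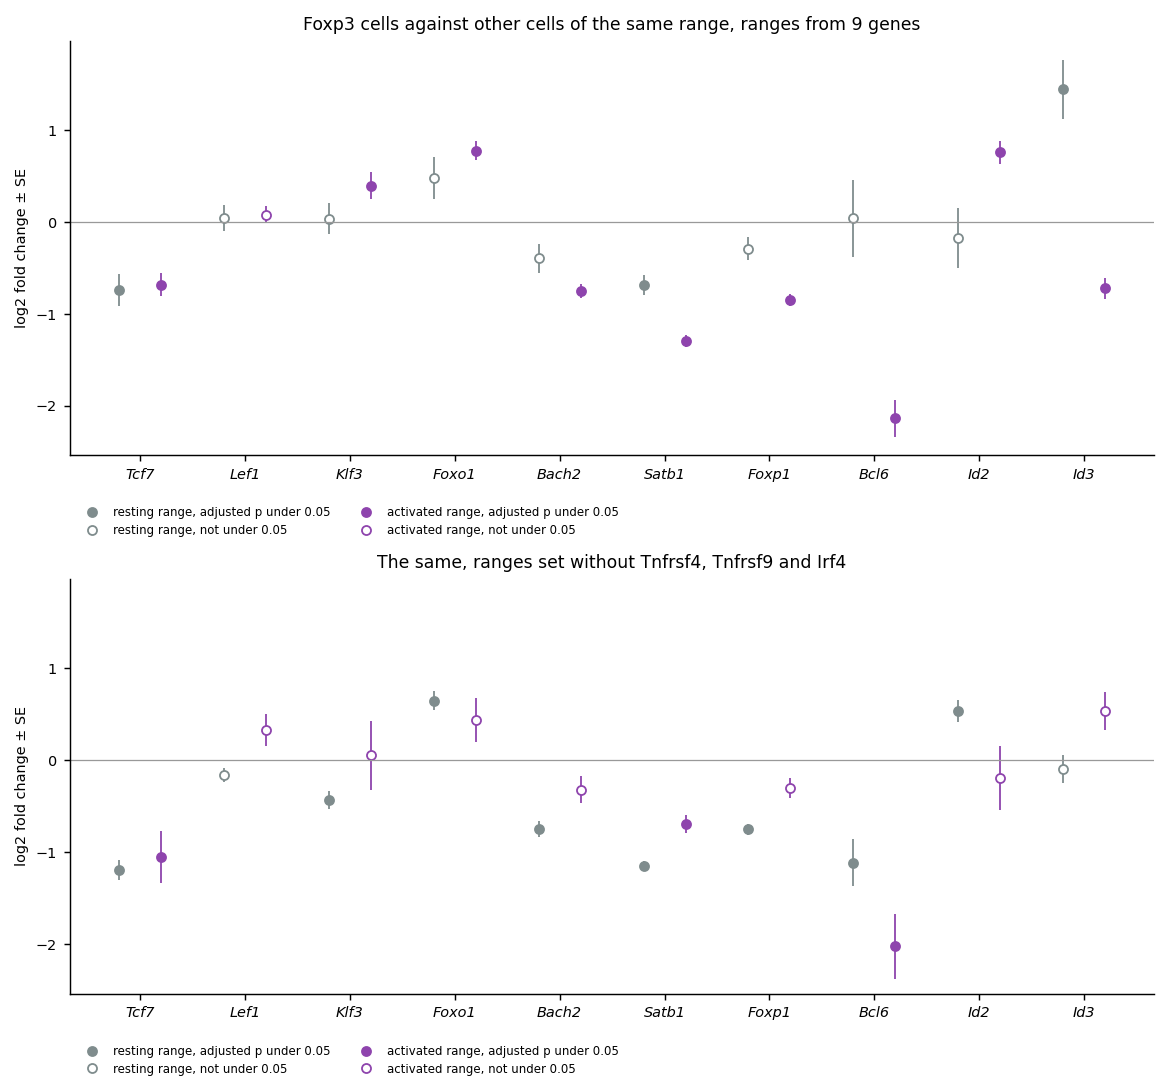
Fitted log2 difference ± SE between Foxp3 cells and other cells within the resting range and within the activated range of the activation sum, over 4 libraries; the upper plot uses all 9 activation genes and the lower plot leaves out Tnfrsf4, Tnfrsf9 and Irf4. Satb1 and Tcf7 are below 0 in all 4 contrasts, while Id3 changes sign between the plots.

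In S100a6 cells Lef1, Bach2, Satb1, Foxp1 and Klf3 were lower than in resting cells, and Id2 and Id3 were higher. These were 5 lower members, where 8.04% of 9872 genes were lower, and 2 higher ones, where 10.7% were. Bach2 was at 99.4, 93.9, 137 and 82.7 CPM, the lowest of the 4 classes, and fell by 1.51 ± 0.11 (adjusted p = 1.58e-09). Lef1 was at 123, 135, 147 and 88.5 CPM and fell by 1.71 ± 0.11 (adjusted p = 1.91e-10). Satb1 was at 635, 1237, 676 and 509 CPM and fell by 1.20 ± 0.11 (adjusted p = 3.25e-08), with the female library labelled wild type well above the other 3. Foxp1 fell by 0.72 ± 0.08 (adjusted p = 1.44e-07), with 387 to 483 CPM. All 4 genes were below the lowest resting value in each library, Satb1 in the female library labelled wild type only just. The share of all genes that were so was not counted. With UMIs per cell, where the median of all genes was 0.65 and the shares of all genes were 57.3% higher and 1.43% lower, the Foxp1 difference was -0.09 (adjusted p = 0.464).

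In these cells Tcf7 and Klf3 depended on the activation range and the scale. Tcf7 was at 144, 163, 250 and 276 CPM, overlapping the resting values, and its change of -0.30 ± 0.11 did not pass the test (adjusted p = 0.0656) and turned to 0.34 (adjusted p = 0.0385) with UMIs per cell. Klf3 was at 108, 102, 170 and 125 CPM and fell by 0.67 ± 0.14 (adjusted p = 0.00134), but by UMIs per cell its change was -0.01 (adjusted p = 0.955). Against Foxp3 cells, where 20.1% of genes were called, 9 of the 10 members differed, and Tcf7 was lower by 1.45 ± 0.14 (adjusted p = 1.2e-07) and Klf3 lower by 0.89 ± 0.18 (adjusted p = 0.000888) in the Foxp3 cells. Lef1 was higher there by 0.75 ± 0.13 (adjusted p = 0.000193). The classes differ in activation, with 107 of the 214 S100a6 cells but 142 of the 859 Foxp3 cells in the resting range, and its part in these differences was not tested. Within S100a6 cells, activated against resting range, 5 of the 7 members tested were called, where 29.7% of 2525 genes were. Tcf7 was at 363 ± 151 CPM (SD, n = 4) in the resting range and at 83.7 ± 82.7 CPM, from 49 UMIs, in the activated range, and fell by 2.12 ± 0.44 (adjusted p = 0.00222). Klf3 fell by 2.34 ± 0.30 (adjusted p = 7.57e-05), Lef1 by 1.49 ± 0.37 (adjusted p = 0.00662) and Id2 by 1.04 ± 0.36 (adjusted p = 0.0379), and Satb1 rose by 0.61 ± 0.21 (adjusted p = 0.0449). Against other cells of the same range, the Tcf7 difference was 0.43 (adjusted p = 0.111) in the resting and -0.09 (adjusted p = 0.888) in the activated range.

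Id2, a hallmark of effector and innate-like lymphocytes, showed the largest rise in S100a6 cells. It was at 123, 339, 181 and 152 CPM against 32.7 to 44.4 CPM in resting cells, a rise of 2.03 ± 0.17 (adjusted p = 5.66e-09), and it stayed called when each library was left out in turn (1.78 to 2.25). A thinned Id2 UMI was seen in 21.5 ± 3.13% of S100a6 cells (37.3% without thinning) and in 5.62 ± 0.50% of resting cells (11.8% without). The 38 myeloid or erythroid cells, a lineage known to express Id2, had a share of 42.1%. Id3 rose by 0.61 ± 0.20 (adjusted p = 0.038) from 62 UMIs in all, with overlapping libraries, and passed the test in 1 of the 4 fits that left out a library. Foxo1 (-0.24 ± 0.13, adjusted p = 0.233) and Bcl6 (0.49 ± 0.30, adjusted p = 0.311) did not pass it, but both did with UMIs per cell, at 0.41 (adjusted p = 0.0174) and 1.18 (adjusted p = 0.00317).

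Myeloid genes were higher in this class: 5 of them summed to 92.8 to 139 CPM in the S100a6 cells of the 4 libraries against 39.8 to 57.2 CPM in resting cells, a difference with no test. The summed level of 6 natural killer and γδ T-cell genes was 0 to 139 CPM in S100a6 cells and overlapped the 4.58 to 13.7 CPM of resting cells, and between 2 and 6 of the 6 genes were at 0. Their part in the Id2 result was not tested. Without the 16 cells that held a UMI of Zbtb16, the factor of innate-like T cells, 7 members were called, where 17.3% of 9826 genes were, with Tcf7 among them (-0.37, adjusted p = 0.0193) and Id3 not (0.57, adjusted p = 0.0674). In the narrow gate of 22 cells, 5 members were called, where 12.1% of genes were: Satb1 (-3.22), Bach2 (-2.47), Lef1 (-2.18), Foxp1 (-2.17) and Id2 (1.91).

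In both activation ranges S100a6 cells had lower Bach2 and Satb1 and higher Id2. In the resting range (107 cells) 5 members were called, where 16.5% of 8840 genes were: Satb1 (-1.73), Bach2 (-1.70), Lef1 (-1.19) and Foxp1 (-0.98) were lower and Id2 (2.46) was higher. In the activated range (55 cells) 6 were called, where 13.8% of 8571 genes were, among them Bach2 (-1.90), Satb1 (-1.50) and Id2 (1.49), with Id3 lower (-1.51). With the activation sum over 6 genes, 19 S100a6 cells were in the activated range and the Id2 difference there was 0.14 (adjusted p = 0.975). The difference between the activation changes of S100a6 and other cells was called for 0 of 10 members (0.819% of 9526 genes, and 1213 genes at an unadjusted p under 0.05).

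The comparison named in the series title, between libraries labelled knockout and wild type, moved none of the 10 factors over all T cells. The fit with sex as a term called 2.87% of 12770 genes and 0 members, with 1275 genes at an unadjusted p under 0.05, and DESeq2 also called 0 members. At an unadjusted p under 0.05, 2 members stood out, Tcf7 and Bcl6. Tcf7 was at 123 and 124 CPM in the libraries labelled knockout (female, male) and at 129 and 144 CPM in those labelled wild type, a difference of -0.21 ± 0.09 (adjusted p = 0.228). Foxp3 cells, in which Tcf7 is low, made up 4.73% and 5.50% of the kept cells of the libraries labelled knockout and 2.32% and 3.61% of the others, and 4 of the 6 regulatory markers were called higher over all T cells under the knockout label, among them Ikzf2 (0.88) and Ctla4 (0.62). In resting cells, which hold no Foxp3 UMI, the log2 ratio of Tcf7 between the labels was -0.10 in the female and -0.29 in the male pair, and in activated cells 0.04 and -0.12. The part of the Foxp3 cells in the difference over all T cells was not tested. Bcl6 was at 31.3 and 37.3 CPM against 35.5 and 40.3 CPM, also -0.21 ± 0.09 (adjusted p = 0.298). The other 8 members had fitted differences between -0.16 and 0.11. On simulated counts with 12592 genes, a log2 change of 0.5 was recovered for 63% of changed genes in this comparison, so differences of this size could be missed.

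Within classes, Klf3 in activated cells was the only member called outside the narrow S100a6 gate, where 1.75% of 10878 genes were called. It was at 28.7 and 27.7 CPM in the libraries labelled knockout and at 19.2 and 19.9 CPM in those labelled wild type, and was higher by 0.42 ± 0.12 (adjusted p = 0.0301). All 4 values lie under the 37.1 to 44.3 CPM of free RNA. The call was lost with no filter on low counts (0.42, adjusted p = 0.0524), with thinned counts (0.14, adjusted p = 0.976), in cells of at least 4000 UMIs (0.35, adjusted p = 0.414) and without cells of very high UMI count (0.43, adjusted p = 0.0569). It was also lost with resting cells at 0 and activated cells at 8 or more (0.53, adjusted p = 0.233), without a sex term (0.42, adjusted p = 0.402) and in the fits on 3 libraries, which leave out 1 library and the sex term together (0.37 to 0.48). It held with the wide S100a6 gate (0.43, adjusted p = 0.0148), with RLE factors (0.41, adjusted p = 0.0342) and with the second activation list (0.46, adjusted p = 0.029). The activated against resting change of Klf3 differed by 0.48 ± 0.15 between the labels and did not pass the test (adjusted p = 0.396). Between the labels in activated cells, 989 genes and 3 members (Klf3, Foxp1 and Bcl6) had an unadjusted p under 0.05 in edgeR's test.

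No member was called between the labels in resting cells (0.649% of genes), Foxp3 cells (0.364%) or S100a6 cells of the wide gate (0.0177%). In edgeR's test 595, 383 and 186 genes had an unadjusted p under 0.05 there, and so did 0, 1 and 0 members. Without the female library labelled wild type and, with only 3 libraries, without a sex term, 4 calls appeared: Tcf7 (-0.40, adjusted p = 0.0181) and Bcl6 (-0.61, adjusted p = 0.0145) in resting cells, and Id3 in activated (-0.57, adjusted p = 0.0166) and Foxp3 cells (-0.77, adjusted p = 0.0186). Of all genes, 2.66%, 2.1% and 1.02% were called in the resting, activated and Foxp3 cells of those fits. Those fits set a female and a male knockout-labelled library against the single male library labelled wild type, so that sex is not balanced, and assume that it varies like the others. Id3 was higher in the female library labelled knockout than in the other female library and lower in the male pair, 56.8 against 42.1 and 67.2 against 86.2 CPM in activated cells.

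In the 22 cells of the narrow S100a6 gate, 1 of the 4 members tested was called between the labels (0.568% of 528 genes). This was Id2, which was lower by 3.35 ± 0.80 in the libraries labelled knockout (adjusted p = 0.0055). The call was lost with no filter on low counts (-3.14, adjusted p = 0.0976), in cells of at least 4000 UMIs (-3.24, adjusted p = 0.0632), without a sex term (-3.29, adjusted p = 0.989) and in 4 of 4 fits on 3 libraries without a sex term (-3.99 to -2.49). In the 214 cells of the wide gate its difference was -0.60 ± 0.37 (adjusted p = 1). Tests of whether a class contrast differed between labels called 0 members for activated cells (0.124% of genes), Foxp3 cells (0.207%) and S100a6 cells of the wide gate (0.0304%), with 384, 582 and 745 genes at an unadjusted p under 0.05. In the narrow gate Id2 was called (-2.88 ± 0.62, adjusted p = 0.0409, 0.062% of genes).

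**Figure D5:**
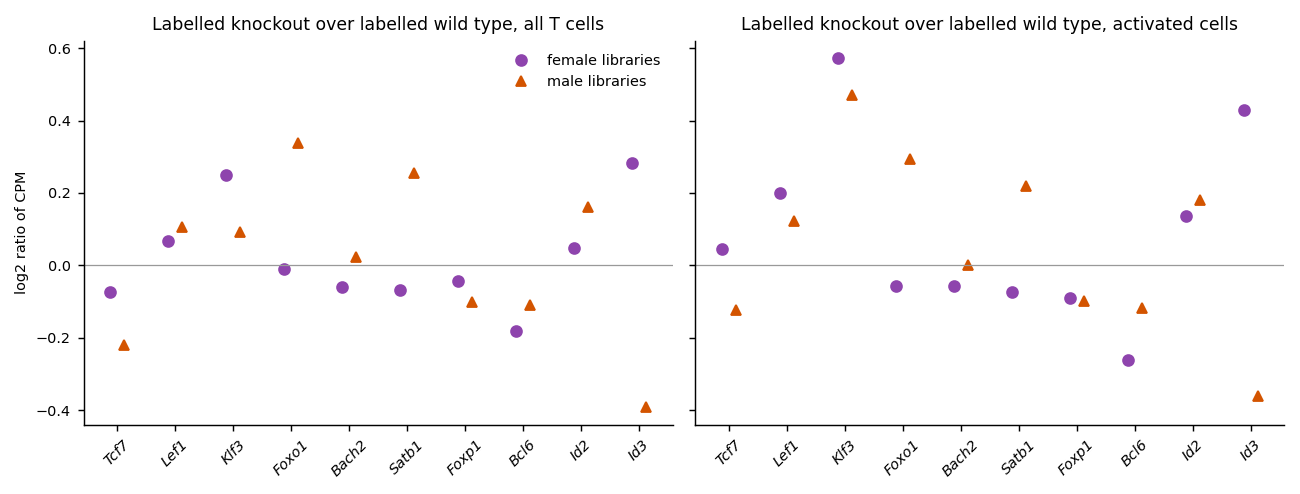
Log2 ratio of CPM between the library labelled knockout and the library labelled wild type of the same sex, for each factor in all T cells (left) and in activated cells (right); circles are the female and triangles the male pair. Klf3 lies above 0 in both pairs in activated cells, and Id3 lies on opposite sides of 0.

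Other genes of the quiescence program moved as Tcf7, Lef1 and Klf3 did in activated cells. Of 22 naive and quiescence genes, 17 were lower and 3 higher, where 37.3% and 42.9% of all genes were, with a median log2 change of -2.07 against 0.06 for all genes. S1pr1 and Il7r are also among the 6 naive markers of the class check above. The lowest were S1pr1, the egress receptor (-4.50 ± 0.11), Il7r, the receptor of interleukin 7 (-3.98 ± 0.10), and Pik3ip1, an inhibitor of PI3 kinase (-3.96 ± 0.09). In Foxp3 cells 19 of the 22 were lower, where 17.3% of all genes were, and 0 higher (median -0.82, against 0.01), led by Dapl1 (-2.98), Il7r (-2.75) and Igfbp4 (-2.64). In S100a6 cells 13 were lower, where 8.04% of all genes were, and 1 higher (median -0.50, against -0.01), among them Igfbp4 (-3.60) and Pik3ip1 (-1.96).

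Of the 11 paralogs of the members that could be tested, 4 were higher and 7 lower in activated cells, where 42.9% and 37.3% of all genes were. Id1 (2.81 ± 0.18), Klf10 (1.43 ± 0.20), Foxp4 (1.30 ± 0.09) and Bach1 (0.29 ± 0.10) rose. Klf2, the homing factor, fell by 2.61 ± 0.08, Klf6 by 1.36 ± 0.07 and Klf13 by 1.28 ± 0.06, and the forkhead genes Foxo4 (-1.96 ± 0.18) and Foxo3 (-0.67 ± 0.11) were lower. The E proteins, which the Id proteins bind, were mixed: Tcf3 fell by 0.68 ± 0.08, Tcf4 fell by 1.06 ± 0.23 and Tcf12 rose by 0.20 ± 0.06. In Foxp3 cells Tcf4 rose by 0.89 ± 0.29 (adjusted p = 0.0144), and in S100a6 cells by 2.06 ± 0.32 (adjusted p = 3.38e-05). Of 13 corepressors and partners, 8 were higher and 3 lower in activated cells, beside those same shares of all genes, with Tle5 the lowest (-1.53 ± 0.06). Of 13 effector factors, 10 were higher and 0 lower in Foxp3 cells, where 20.8% and 17.3% of all genes were, led by Ikzf2 (4.30, also among the regulatory markers above), Maf (3.48) and Gata3 (2.58), and 9 were higher and 0 lower in S100a6 cells, where 10.7% and 8.04% were, led by Maf (3.75), Ikzf2 (2.75) and Rora (2.21).

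Over the 16 sums of library and class, as log2(CPM + 1) with TMM scaling, centred per library, the genes whose levels followed a member most closely were searched among 5393 genes with a mean of at least 20 CPM. Klf3 was followed by Ripor2 (Pearson r = 0.982) and Crlf3 (0.982), and Tcf7 by Rap2b (0.970) and Cd28 (0.946). Lef1 was followed by Il4ra (0.969) and Smchd1 (0.964), Satb1 by Bcl2l11 (0.970) and Nsa2 (0.954), and Foxo1 by Mllt6 (0.949) and Fam49b (0.947). Id3 was followed by Metap2 (0.988) and Cars (0.987), Id2 by Tiparp (0.978) and Cotl1 (0.945), and Bcl6 by Ppp4r3b (0.959) and Cbll1 (0.932). Bach2 was followed by Tpt1 (0.975) and Gm26917 (0.969). The 16 points share 4 libraries and 4 classes, so these values describe likeness across classes and carry no test.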

How the data were processed

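The authors deposited raw UMI counts, by gene and barcode and with empty droplets included, for each library; the submitters' processing notes name Cell Ranger 6.0.2 and build mm10, while the file headers give Cell Ranger 4. The use of strand in counting was not given in the sources used here, so reads of 6 members with an antisense gene in the files (Tcf7, Lef1, Bach2, Foxo1, Klf3 and Bcl6) cannot be told apart from it. Coordinates are from GENCODE M21 (GRCm38). Libraries were grouped by labelled genotype and sex.

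Cells with 3 or more thinned UMIs of a B, natural killer or γδ, myeloid or CD8 list (10 or more for haemoglobin) were left out, and no doublet caller was run. Counts were summed per library and class and tested with edgeR 4.0.16 (TMM, filterByExpr, quasi-likelihood, Benjamini-Hochberg over all genes, gate genes left out, library as a block, sex as a term for labels), with DESeq2 1.42.0 as an alternative, in R 4.3.3; cells were handled in Python 3.11.15. CPM in the text are unscaled. The class fit was designed with the narrow S100a6 gate, and that fit gives the activated and Foxp3 values. On simulated counts for activated against resting cells (9410 genes), 78.5% of log2 changes of 0.5 were recovered. The members and lists were chosen with earlier results of these data known. All 10 members are named; of the other lists at most the 3 highest and 3 lowest called genes, the paralogs and E proteins, and per member the 2 genes most like it, except for results that are not reported here. The motifs and the promoters printed were chosen after the values were seen, and so was the 6-gene activation sum. The labels do not say whether libraries are separate animals.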

Additional observations from a re-analysis of the deposited data

Results flagged for a closer look

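In Foxp3 cells 4 members changed differently between the activated and resting ranges than they did in other cells, by a test of the difference itself in edgeR (4.19% of 9545 genes called). Satb1 differed by -0.69 (adjusted p = 4.57e-05), Foxp1 by -0.69 (adjusted p = 0.000222), Id3 by -2.22 (adjusted p = 2.21e-05) and Bcl6 by -2.23 (adjusted p = 0.0402). With ranges set without Tnfrsf4, Tnfrsf9 and Irf4, 1 member was called (2.01% of 9287 genes): Satb1 turned to 0.46 (adjusted p = 0.00288), Foxp1 to 0.36 (adjusted p = 0.133), Id3 to 0.64 (adjusted p = 0.354), and Bcl6 was -0.99 (adjusted p = 0.5).

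Id2 in the 22 cells of the narrow S100a6 gate had a contrast with resting cells that differed between the labels by -2.88 (adjusted p = 0.0409), and by -0.41 (adjusted p = 0.806) in the wide gate.

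In 40 sets of 4 library values (10 members in 4 classes), 2 had 1 library far from the other 3: Satb1 in resting cells, at 1242 CPM in the male library labelled wild type, and Bach2 in activated cells, at 234 CPM in the female library with the wild-type label. Chance gives about 1 such set in 20.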

How the results depend on the processing

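The counts of members called stayed within 1.5 times of their main value in 73 alternatives and moved further in 16. Members called in activated cells numbered 8 to 9, in Foxp3 cells 8 to 10 and in S100a6 cells 4 to 7, and 8 in the wide gate with UMIs per cell. Of all genes, 80.2%, 38.1% and 12.1% were called in the main fits of these classes, and 80.6%, 54.5% and 9.35% with UMIs per cell. In the wide gate the shares were 18.7% with TMM factors and 58.7% with UMIs per cell. Against the labels within classes, 2 members were called, and 1 with the wide S100a6 gate, without cells of very high UMI count or with resting cells at 0 and activated cells at 8 or more. That count was 0 with no filter on low counts, with thinned counts, in cells of at least 4000 UMIs or without a sex term, and 0 to 4 without 1 library (and then without a sex term). The difference of class contrasts between labels was called for 1 member, and for 0 with the wide gate or thinned counts. With the activation sum over 6 genes, Foxp3 calls went from 3 to 8 in the resting range and from 9 to 3 in the activated range, and the difference of their activation change from 4 to 1. The labels carry no replicate numbers; the sex term pairs the libraries of the label comparison, and the library was a block between classes. The wide gate, the within-range contrasts, the 6-gene sum, the fits with no scaling factors, the limit of 2 Foxp3 UMIs and the left-out libraries within classes were chosen after seeing the data. Of the values of single members under alternatives, 575 kept direction and call, 45 lost and 13 gained it, and 72 changed sign; the cause was not tested. S100a6 values are those of the narrow gate unless named otherwise. With DESeq2 they were Bach2 -0.026 and Id2 -0.064 (activated cells), Tcf7 0.20 and Klf3 0.0076 (S100a6 cells). With RLE factors they were Bach2 -0.028 and Id2 -0.064 (activated cells), Tcf7 0.24 and Klf3 0.055 (S100a6 cells). With UMIs per cell they were Tcf7 0.74, Foxo1 0.061 and Klf3 0.56 (S100a6 cells). In cells of at least 4000 UMIs they were Lef1 -0.21 and Klf3 -0.23 (labels over all T cells), Id2 -0.18 (activated cells). Without the 123 cells above 3 times the median UMI count they were Bach2 -0.076 and Id2 -0.15 (activated cells). With counts thinned to 2000 UMIs they were Lef1 -0.031, Satb1 -0.0016 and Id2 -0.077 (labels over all T cells), Bach2 -0.20 and Id2 -0.046 (activated cells), Id2 -0.12 (Foxp3 cells). With no scaling factors they were Bach2 -0.12 and Id2 -0.16 (activated cells), Tcf7 0.54 and Klf3 0.35 (S100a6 cells). With the 6-gene sum they were Lef1 -0.16, Id2 0.54, Id3 -0.096, Klf3 -0.43 and Bcl6 -1.11 (Foxp3 cells, resting range); Id2 -0.19 and Id3 0.54 (Foxp3 cells, activated range); Foxo1 0.095 and Id3 -0.16 (S100a6 cells, resting range). They also were Tcf7 0.12 and Foxo1 -0.64 (S100a6 cells, activated range), Id2 -0.25 (activated cells). Further, they were Tcf7 0.084, Lef1 0.46, Satb1 0.46, Bach2 0.34, Foxo1 -0.32, Foxp1 0.35, Id2 -0.85 and Id3 0.64 (difference of the activation change in Foxp3 cells), Satb1 0.30 and Klf3 -0.34 (difference of the activation change in S100a6 cells). With resting cells at 0 and activated cells at 8 or more they were Bach2 -0.067 and Id2 -0.13 (activated cells). With a second activation list they were Bach2 -0.0042 (activated cells). With the wide S100a6 gate they were Bcl6 0.49 (S100a6 cells), Bach2 -0.030 (activated cells). With that gate less the Zbtb16 cells they were Bcl6 0.63 (S100a6 cells). With 1 library left out at a time, members that changed sign ranged as follows: Id2 -0.095 to 0.17, Lef1 -0.0042 to 0.046, Klf3 -0.034 to 0.25, Satb1 -0.11 to 0.16, Foxo1 -0.018 to 0.22 and Id3 -0.59 to 0.36 (labels over all T cells), Bach2 -0.060 to -0.011 and Id2 -0.15 to -0.017 (activated cells), Id3 -0.65 to 1.43 and Tcf7 -0.58 to 0.025 (S100a6 cells).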
